A study of Brachypodium distachyon and Sorghum bicolor and Panicum virgatum with 44 samples.

Results

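Sorghum carries a block of miRNAs, numbered miR5381 to miR6235, for which no miRNA of the same number was present in the Brachypodium or switchgrass target tables of the same series. They are called sorghum lineage miRNAs here, although the switchgrass table was limited to miRNAs that the study had found by homology and other plants were not examined. Their predicted target sites are described here across transcripts and libraries. A site was one transcript and one cleavage position, and it was taken when the first miRNA named for it in the sorghum target table lay in the range from miR5381 to miR6235, whether or not a read was found there. This gave 4199 of the 7435 sorghum sites, in 2658 of 4448 transcripts, out of 36467 sites in the 3 species together. The sites belonged to 35 miRNA numbers and 78 different mature sequences, against 152 mature sequences in the whole sorghum table. The other 3236 sorghum sites, 2913 of them belonging to miRNAs numbered under 1000, served for comparison. No site was predicted for both kinds of miRNA.

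The series holds 34 PARE libraries and 10 RNA-seq libraries from 3 grasses, and only the 10 sorghum PARE libraries bear on these sites. All came from the inbred line BTx623, with 2 biological replicates in each of 5 groups. The groups were above-ground tissue of seedlings kept at 4 °C for 24 h, its control for cold without stress, and leaf, root and panicle. The labels of leaf, root and panicle name no treatment, and the study gives no growth details for these sorghum tissues. Every site with a read came with a single abundance and a single library, and sites without a read named no library. Values for the separate libraries were not given, so no spread between replicates could be computed for any site. Read depth of the libraries was not used here, and the intervals below are 95% Wilson intervals that cover counting of sites only.

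Plant miRNAs are cut from the stem of a folded precursor, whose sides give the 5p and 3p sequences, and guide an Argonaute protein to transcripts with nearly full complementarity. Cleavage falls opposite the middle of the miRNA and leaves a downstream fragment with a free end. PARE, parallel analysis of RNA ends, sequences such ends, so a read that starts exactly at the predicted position is the trace expected of miRNA-guided cleavage, although general decay of the transcript also leaves ends. miRNAs shared by many plants often act on transcription factors, while miRNAs found in a single lineage are commonly regarded as young, with fewer known targets. In all 4320 rows of these miRNAs the cleavage position lay 9 bases before the last base of the predicted site, as the rule for the middle of the miRNA sets it.

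The mature sequences below are those of the miRNAs with many sites or with a prominent PARE signal, each shown 5′ to 3′ with its seed, bases 2 to 8, in capitals. The first set is the miR5568 group, which held more predicted sites than any other number, together with miR6220, whose sequences share runs with it.
miR5568a: cAGAGCGAcuuacaauuugga
miR5568b-3p: aCUAUGUAucuagaaaagcua
miR5568c-3p: aCUUACAGuuuggaacggagg
miR5568c-5p: uCUGUUCCaaauuguaagucg
miR5568d-5p: uGGCUUUUcuagauacauagc
miR5568f-3p: gUCUUAUAauuuggaauggag
miR5568f-5p: uCCAUUCCaaauuguaagaug
miR5568g-3p: aAAACGUCuuauaauuuggag
miR5568g-5p: cAAAUUAUaagauguuuuggc
miR6220-3p: aUGCCUUAuaauuugggauggaga
miR6220-5p: cUCCAUCCuaaauuauaagacauu

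The second set is shown for the prominent sites of other numbers or for their many sites.
miR5382: cCAAUCUAaacaggcccu
miR5384: cGCGCCGCcguccagcgg
miR5386: cGUCGCUGucgcgcgcgcug
miR5564a: uGGGGAAGcaauucgucgaaca
miR5565a/miR5565b: aACACAUGuggauugaggcgaauc
miR5565c: uACACAUGuggauugagguga
miR5565e: uUGUUUGGauguugucgga
miR5567: uUAAUGAUucauguauguguccaa
miR5570: aAAAGACAaaucagcauguca
miR6218-3p: aCAAGUUUcgugauuuuugga
miR6223-5p: uUCUUGGGaggagcaugcuag
miR6224c-5p: cUCCGUCCuaauauauaaggc
miR6225-3p: gAAACGAAucuuuuaagucuaauu
miR6225-5p: aACUAGACucaaaagauucaucuc
miR6230-3p: uAACAAGUuuagggaucuaga
miR6230-5p: uUUUGGGUcccuaaacuuguu
miR6231-3p: uAUUUGUGgacucauggacau

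The third set is shown because their sites most often, or least often, carried a read and, for miR6227 and miR6232a, because their arms pair over long runs.
miR5566: uCAGCAUCaccucccuguugu
miR6221-3p: cCGGGGCCagaucucagaagc
miR6227-5p: gGGCCCAAauagcaaguguuguga
miR6227-3p: cUCACAACacuugcuauuuggg
miR6232a-5p: gUCGCUUUgacuuuuuugguacau
miR6232a-3p: uGGAUGUAccaaaaaagucaaagc

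The 78 sequences held 76 different seeds. One seed was common to miR5565c and miR5565a/miR5565b, and the other common seed joined miR5568g-5p with miR6217a-3p/miR6217b-3p. Of the 76 seeds, 0 occurred among the other sorghum miRNAs. A run of at least 12 identical bases, read on the same strand or as the reverse complement, linked 37 pairs of sequences and involved 38 of the 78. Of these pairs 33 were of the same number. The remaining 4 tied miR5568f-3p and miR5568g-3p to the 2 arms of miR6220. No such run was shared with any other mature sequence in the 3 species' tables, where the longest run was 11 bases. The arms of miR6217 and miR6234b, of which at least 1 was listed under a joined name, were not paired here. For the 26 other precursors with both arms in the table, the longest uninterrupted complementary run between the arms had a median of 10.5 bases. It reached 21 bases in miR6227 and in miR6232a and was 5 bases in miR6233. In the miR5568 group, complementary runs also joined different members, with 18 bases between miR5568b-3p and miR5568d-5p and 16 bases between miR5568a and miR5568c-5p. These are lengths of paired letters, and no test was made of them.

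Sites of the sorghum lineage miRNAs carried PARE reads less often than those of the other sorghum miRNAs. Reads were present at 926 of 4199 sites, or 22.1% (95% interval 20.8 to 23.3%), against 926 of 3236 other sites, or 28.6% (27.1 to 30.2%), with the same number of sites by coincidence. Over all sorghum sites 24.9% had a read. The odds ratio was 0.71 (two-sided Fisher's exact test, p = 2.48e-10, adjusted by Benjamini-Hochberg over 10 tests). Sites of 1 miRNA share its sequence, and several sites can lie in 1 transcript, so the sites are not independent and such p-values are too small. The sorghum transcripts had been picked by the study as homologs of Brachypodium transcripts that had PARE evidence for a miRNA, so the part of that choice in the difference cannot be told apart from the kind of miRNA.

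Prominent PARE signals were rarer still at the sorghum lineage sites. The table graded each site by level. Level 0 had no read, and Level 1 had a read that met none of the criteria. Each criterion met raised the level by 1, and these were an abundance of at least 10 TP10M, which are reads scaled to a fixed library total, a rank of 1 or 2 among the read positions of its transcript, and at least 20% of the abundance on that transcript. In the deposited filter column the share criterion is passed from 20%, whereas the study's text sets it at 10%. Among sorghum lineage sites 3273 had no read and 884 were at Level 1, while Levels 2, 3 and 4 held 28, 14 and 0. For Level 4, 0 of the 926 sites with a read has a Wilson upper limit of 0.413%. With the share criterion at 10%, 2 sorghum lineage sites, position 1451 of Sobic.007G006600.1 and position 1119 of Sobic.002G264000.1, reach Level 4, against 40 other sites. The other sorghum sites had 2310 without a read, 824 at Level 1, and 44, 30 and 28 at Levels 2, 3 and 4. Level 2 to 4 was reached by 42 sites, or 1.00% (0.741 to 1.35%), against 102 other sites, or 3.15% (2.60 to 3.81%), and by 1.94% of all sorghum sites. The odds ratio was 0.31 (Fisher's exact test, adjusted p = 1.23e-10). Level 3 or 4 was reached by 0.333% (0.199 to 0.559%) of sorghum lineage sites and 1.79% (1.39 to 2.31%) of other sites, an odds ratio of 0.18 (Fisher's exact test, adjusted p = 3.09e-10). Among sites with an expectation above 3 alone, the 2 odds ratios were 0.65 and 0.43 and no longer passed Fisher's exact test (adjusted p = 0.0846 and 0.0583).

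Most abundances at the sorghum lineage sites were at the bottom of the scale. An abundance of 1 TP10M, the lowest value in the table, was given at 808 of the 926 sites with a read, or 87.3%, against 744 of 926 other sites, or 80.3%. Values from 2 to 9 TP10M were found at 91 sites against 106 other sites, and values of 10 TP10M or more at 27 sites against 76 other sites. At least 2 TP10M was therefore seen at 12.7% (10.7 to 15.0%) of read-bearing sites, against 19.7% (17.2 to 22.3%) of other read-bearing sites, an odds ratio of 0.60 (Fisher's exact test, adjusted p = 8.43e-05). The highest sorghum lineage value was 113 TP10M, while the highest of the other sites was 78134 TP10M, in cold replicate 1, and the next was 3110 TP10M. Summed over sites, abundance came to 1830 TP10M for the sorghum lineage miRNAs and 92985 TP10M for the others, of which that 1 site made up 84.0% and without which their sum was 14851 TP10M. The median share of the transcript's abundance was nearly equal, 0.396% at sorghum lineage sites with a read and 0.385% at other sites with a read.

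**Figure D1:**
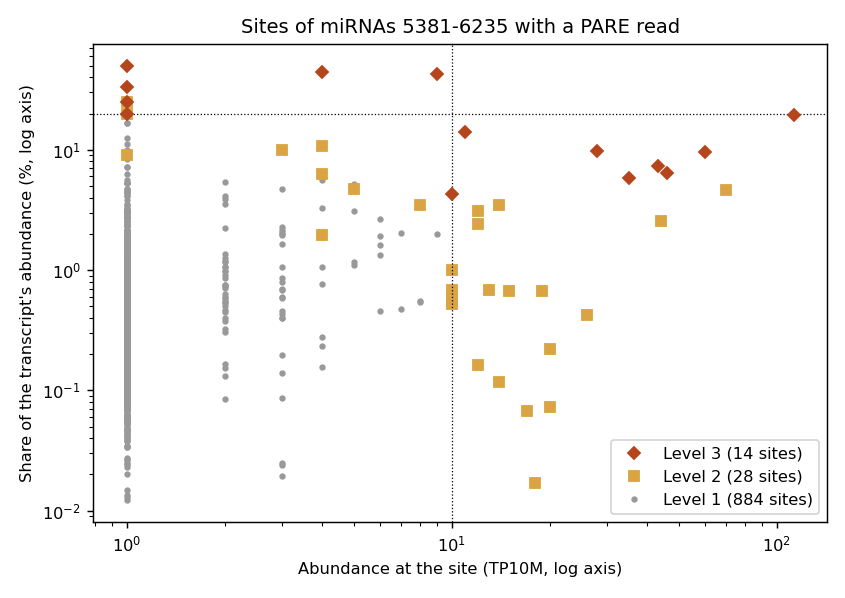
Each point is 1 of the 926 sorghum lineage sites with a PARE read, with the abundance at the site in TP10M on a log x axis and its share of the transcript's abundance in % on a log y axis; diamonds are the 14 Level 3 sites, squares the 28 Level 2 sites and dots the 884 Level 1 sites, and the dotted lines mark 10 TP10M and 20%. No site lies past both lines; the site at 113 TP10M and 19.4% comes nearest.

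The 14 Level 3 sites fell into 2 kinds. In 8 the abundance and rank criteria were met, and in 6 the rank and share criteria were met with fewer than 10 TP10M. The strongest signal was on Sobic.007G006600.1, where 2 adjacent positions were predicted for 2 members of miR5568. Position 1451 (miR5568f-3p) had 113 TP10M, rank 1 and 19.4% of the transcript's abundance, and position 1450 (miR5568c-3p) had 43 TP10M, rank 2 and 7.39%. Both were named for replicate 1 of the control for cold and both had a poor expectation of 4.5, where psRNATarget's expectation runs from 0 for full pairing to a maximum of 5 here. Neither was found by TargetFinder, the second prediction program.

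The site with the best pairing among the abundant Level 3 sites was that of miR5382 on Sobic.006G118900.2 at position 1865. It had 60 TP10M, rank 1 and 9.52% of the transcript's abundance in leaf replicate 1, with an expectation of 2.5 and a TargetFinder score of 3. A lower TargetFinder score is also a closer match, with a maximum of 4 in these data. The same leaf library was named for miR5568g-3p on Sobic.009G129900.1 at position 945, with 46 TP10M, rank 2, 6.40% and an expectation of 5. It was also named for miR6231-3p on Sobic.003G040000.1 at position 1811, with 28 TP10M, rank 1, 9.69% and an expectation of 5. Of these 3 leaf sites only that of miR5382 was predicted by both programs.

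The other 3 abundant Level 3 sites came from 3 different libraries. miR5565e on Sobic.007G218000.1 at position 2133 had 35 TP10M, rank 2 and 5.88% in leaf replicate 2 with an expectation of 4. miR5567 on Sobic.002G264000.1 at position 1119 had 11 TP10M, rank 2 and 14.1% in replicate 1 of the control for cold and was found by TargetFinder alone with a score of 4. miR5568b-3p on Sobic.006G201900.2 at position 8565 had 10 TP10M, rank 2 and 4.27% in panicle replicate 1 with an expectation of 4.5. All 3 stood second among the positions of their transcript.

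The 6 Level 3 sites of low abundance were on transcripts with few reads in the library named for the site. A site's share refers to that library: in all 61 cases where a transcript had several read-bearing sites named for the same library, abundance divided by share gave the same transcript total within 2%. These totals were 21 TP10M or less at the 6 sites. In other libraries the total could be higher, as on Sobic.010G062300.1, with 9 TP10M in cold replicate 1 and 531 TP10M in root replicate 2. Of the 6 sites, 2 belonged to miR5384, an 18-base sequence with 88.9% G and C, and were named for cold replicate 1. Sobic.001G371000.1 at position 235 had 9 TP10M and 42.9% of the transcript's abundance with a TargetFinder score of 4, and Sobic.010G062300.1 at position 1036 had 4 TP10M and 44.4% with a score of 2. Both ranked first on their transcript.

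The remaining 4 rested on 1 TP10M each, where a single position can make up a large share. miR6220-5p on Sobic.003G443700.1 at position 1479 had 50.0% of its transcript's abundance in replicate 2 of the control for cold, with an expectation of 4 and a score of 4. miR5565a/miR5565b and miR5565c, which share a seed, were both predicted for position 1338 of Sobic.006G092300.1, with 33.3% in leaf replicate 1 and a TargetFinder score of 3. miR5567 on Sobic.003G046400.5 at position 3110 had 25.0% in leaf replicate 1 with an expectation of 3.5. The last, miR5568f-5p on Sobic.009G210400.1 at position 1491, had 20.0% in cold replicate 2 with an expectation of 3. These 4 sites are graded as high as the one with 113 TP10M.

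Of the 28 Level 2 sites, 19 met the abundance criterion, 7 the rank criterion and 2 the share criterion. The most abundant was miR6230-5p on Sobic.004G179300.1 at position 3189, with 70 TP10M and 4.61% in leaf replicate 1 and an expectation of 5. It was second in abundance among all sorghum lineage sites. miR6231-3p had 3 sites at Level 2, with 44 TP10M on Sobic.004G128900.1 at position 2547 (leaf replicate 1), 13 TP10M on Sobic.004G040200.2 at position 2230 (panicle replicate 1) and 10 TP10M on Sobic.001G342600.1 at position 2104 (panicle replicate 2). Their expectations were 5, 5 and 4.5. miR5570 had 26 TP10M on Sobic.009G119400.1 at position 1412 in panicle replicate 2 and 12 TP10M on Sobic.009G053900.1 at position 3528 in panicle replicate 1, both with an expectation of 5. None of these 6 sites was found by TargetFinder.

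miR5384 had 20 TP10M at 2 positions in root replicate 1, on Sobic.002G384400.1 at position 426 and on Sobic.003G191000.1 at position 471. Both had a TargetFinder score of 3.5, and they made up only 0.0730% and 0.219% of the abundance of their transcripts. miR5565e reached Level 2 on 3 transcripts, with 17 TP10M on Sobic.005G042000.1 at position 552 (root replicate 1), 14 TP10M on Sobic.010G060500.1 at position 779 (cold replicate 2) and 10 TP10M on Sobic.006G137100.1 at position 708 (panicle replicate 1). Of the abundant Level 2 sites the lowest share was that of miR6223-5p on Sobic.009G132900.1 at position 1319, with 18 TP10M but 0.0169% of its transcript in leaf replicate 2. High abundance and a small share thus occurred at the same site.

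miR5568 supplied 9 Level 2 sites, 5 of them by abundance. miR5568c-3p had 19 TP10M on Sobic.001G266200.1 at position 1074 (panicle replicate 1) and 10 TP10M on Sobic.001G112900.1 at position 1757 (control for cold replicate 2). miR5568g-3p had 12 TP10M on Sobic.002G205500.1 at position 3541 and 10 TP10M on Sobic.008G114300.1 at position 7462, both in panicle replicate 1. With miR5568a, at 12 TP10M on Sobic.008G029300.1 at position 1946 (leaf replicate 2), these were the abundant ones. The site on Sobic.008G114300.1 alone among the 5 had a close prediction, with an expectation of 2 and a TargetFinder score of 2. The remaining 4 miR5568 sites met only the rank criterion, at 5 TP10M (miR5568f-5p on Sobic.003G168100.1 at position 2695, cold replicate 2), 4 TP10M (miR5568g-3p on Sobic.003G365100.1 at position 1308, control for cold replicate 2), 3 TP10M (miR5568b-3p on Sobic.008G022400.1 at position 1566, control for cold replicate 2) and 1 TP10M (miR5568g-3p on Sobic.010G082700.2 at position 1631, control for cold replicate 1).

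The transcript Sobic.002G205500.1 carried a second Level 2 site, of miR6218-3p at position 3319, with 14 TP10M in panicle replicate 2 and an expectation of 3.5. miR6230-3p had 15 TP10M on Sobic.001G070000.2 at position 838 in panicle replicate 1. By rank alone, miR5386 reached Level 2 with 8 TP10M on Sobic.010G258700.1 at position 1125 (control for cold replicate 1), miR6225-3p with 4 TP10M on Sobic.002G373100.1 at position 1663 (panicle replicate 1), and position 951 of Sobic.001G132000.1, predicted for both miR6220-5p and miR6224c-5p, with 4 TP10M in root replicate 2. The last site is one where miRNAs of different numbers meet. By share alone, with 1 TP10M each, miR5564a had 25.0% of Sobic.005G024600.1 at position 119 (cold replicate 1) and miR5567 had 20.0% of Sobic.001G373500.2 at position 2955 (cold replicate 2). All 21 sorghum lineage sites of at least 12 TP10M are among those named.

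The 42 sites at Level 2 or 3 lay in 40 transcripts and came from 15 of the 35 miRNA numbers. Leaf libraries were named for 10 of them, root for 4, panicle for 12, cold for 7 and the control for cold for 9. An expectation of at most 3 was given for 4, and 20 had an expectation of 4.5 or 5. A TargetFinder score was given for 13, of which 8 had no expectation. Gene functions of these transcripts were not analysed here.

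The relation between predicted pairing and PARE reads ran in opposite directions in the 2 kinds of miRNA. Sorghum lineage sites more often had a close prediction, with an expectation of at most 3 at 509 of 3771 scored sites, or 13.5% (12.4 to 14.6%), against 165 of 3159, or 5.22% (4.50 to 6.05%). The odds ratio was 2.83 (Fisher's exact test, adjusted p = 2.07e-31). The median expectation was 4.5 in both kinds. Of the 509 sites, 193 were of miR5568 and 93 of miR6225, and without miR5568 the odds ratio was 2.38. Both programs predicted 584 of 4199 sorghum lineage sites, or 13.9% (12.9 to 15.0%), and 188 of 3236 others, or 5.81% (5.05 to 6.67%), with an odds ratio of 2.62 (Fisher's exact test, adjusted p = 1.24e-30). psRNATarget alone gave 3187 and TargetFinder alone gave 428 of the sorghum lineage sites. Of the TargetFinder-only predictions, 174 were for miR5384.

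Closer pairing did not go with more reads among the sorghum lineage sites. With an expectation of at most 3, a read stood at 77 of 509 sites, or 15.1% (12.3 to 18.5%), and with an expectation above 3 at 758 of 3262 sites, or 23.2% (21.8 to 24.7%). The odds ratio was 0.59 (Fisher's exact test, adjusted p = 4.42e-05). Where both programs predicted the site, 91 of 584 had a read, or 15.6% (12.9 to 18.7%), against 835 of 3615 predicted by 1 program, or 23.1% (21.8 to 24.5%), with an odds ratio of 0.61 (Fisher's exact test, adjusted p = 4.71e-05). Counting only reads of at least 2 TP10M, the odds ratios were 0.61 and 0.50 and neither passed Fisher's exact test (adjusted p = 0.208 and 0.0539). With miRNAs of 21 bases alone, an alternative chosen after the data had been seen, the odds ratio for the programs was 0.74 and did not pass Fisher's exact test (adjusted p = 0.0668).

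For the other sorghum miRNAs the same contrasts went the other way. Reads stood at 46.1% of the 165 sites scored 3 or lower and at 27.2% of the 2994 scored above 3, an odds ratio of 2.29. It was found at 48.4% of 188 sites predicted by both programs and at 27.4% of 3048 predicted by 1, an odds ratio of 2.49. The difference between the kinds of miRNA was tested in a logistic fit over all sorghum sites, a test added after the values had been seen. The odds ratio of the sorghum lineage sites was 0.257 times that of the other sites for expectation (95% interval 0.171 to 0.387) and 0.247 times for the programs (0.169 to 0.361). The p-values, adjusted over these 2 tests, were 6.33e-11 and 1.07e-12. With standard errors that allow for sites of the same miRNA number, the p-values of the logistic fits were 0.00927 and 0.00157. The transcripts had been picked as homologs of Brachypodium transcripts with PARE evidence for a miRNA. The part of that choice in this difference cannot be told apart from the kind of miRNA.

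**Figure D2:**
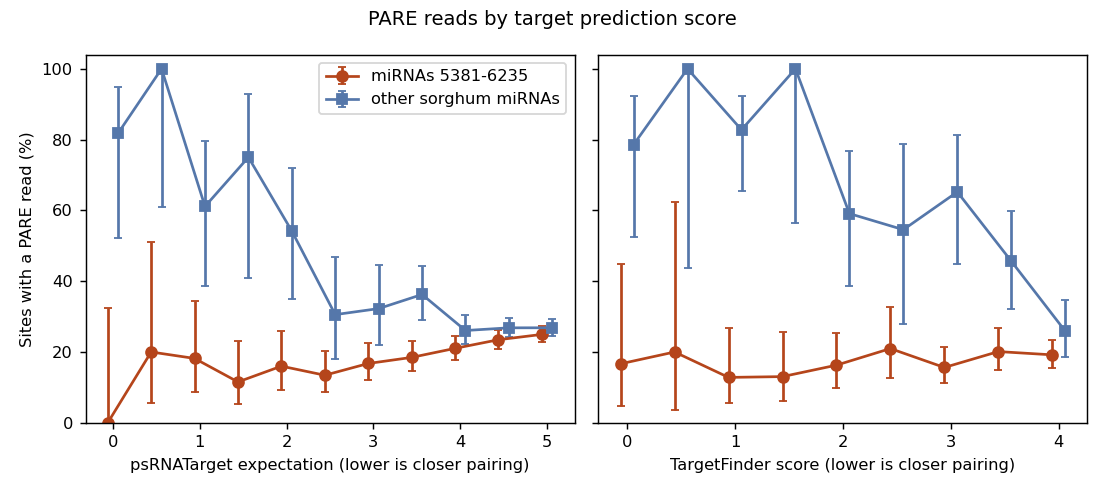
The y axis gives what part of the sites had a PARE read, in %, for the sorghum lineage miRNAs (circles) and the other sorghum miRNAs (squares), against the psRNATarget expectation (left) and the TargetFinder score (right), both unitless, with 95% Wilson intervals; a lower score is a closer match. At an expectation of 0 no sorghum lineage site of 8 had a read, against 9 of 11 other sites, and at 5 the shares were 25.0% and 26.8%.

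The shares lay far apart at the closest matches. Among the 8 sorghum lineage sites with an expectation of 0, none had a read (upper limit 32.4% by the Wilson interval), against 9 of 11 other sites. Of these 8, 4 were miR5382 sites, 2 were miR6225-5p sites, and miR6217a-5p/miR6217b-5p and miR5565e had 1 each. Up to an expectation of 1, a read was found at 8 of 51 sorghum lineage sites, or 15.7% (8.17 to 28.0%), and at 26 of 35 other sites, or 74.3% (57.9 to 85.8%). Of these sites 0 of the sorghum lineage and 17 of the others reached Level 2 or above. The share with a read at sorghum lineage sites was 16.8% at an expectation of 3, 21.0% at 4, 23.5% at 4.5 and 25.0% at 5. At 5, which held 1442 sorghum lineage and 1427 other sites, the other miRNAs had 26.8%, and the intervals overlapped (22.8 to 27.3% against 24.6 to 29.2%).

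The same held within most of the larger numbers, with few sites in each. There were 7 numbers with at least 20 sites scored 3 or lower, and in 5 the share with a read was lower at those sites than at the sites above 3. In miR5568 it was 18.7% of 193 sites against 24.1% of 1015, in miR5565 15.0% of 40 against 26.3% of 278, in miR6220 10.5% of 38 against 26.1% of 88, in miR5382 13.6% of 22 against 32.6% of 92 and in miR6235 9.52% of 21 against 16.3% of 49. It was 8.60% of 93 against 8.26% of 218 in miR6225 and 23.8% of 21 against 19.8% of 81 in miR5389. These values within a number are descriptions and were not tested.

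For the 5 numbers with the most read-bearing sites, the site of lowest expectation had at most 1 TP10M. In miR5568, 4 sites shared the lowest expectation of 0.5, and only miR5568f-3p on Sobic.003G370200.1 at position 3020 had a read, with 1 TP10M in panicle replicate 2, which was 0.917% of the transcript's abundance. miR5565e on Sobic.010G265700.2 at position 5608, with an expectation of 0, and miR6232a-3p on Sobic.009G242100.1 at position 3850, with an expectation of 1, had no read. miR5564a on Sobic.005G030850.1 at position 101 (expectation 1) had 1 TP10M in root replicate 2. miR5384 had an expectation at only 17 of its 191 sites, and the lowest, 2.5 on Sobic.001G487100.1 at position 94, had 1 TP10M in root replicate 2 but a TargetFinder score of 4. By TargetFinder its closest sites, with a score of 1, were on Sobic.002G372200.1 at position 163, without a read, and on Sobic.003G008100.1 at position 4250, with 1 TP10M in control for cold replicate 1.

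The share of sites with a read differed among the miRNA numbers. Of the 35 numbers, 34 had at least 1 site with a read, and miR6226, with 7 sites, had none (upper limit 35.4%). Among the 22 numbers with at least 50 sites the share ran from 7.41% to 42.9%. miR5568 had the most sites, 1272 in 776 transcripts, and a read at 295, or 23.2% (21.0 to 25.6%). Next came miR5565 with 92 of 417 sites (22.1%) and miR6225 with 26 of 315 (8.25%, 5.69 to 11.8%). miR5384 had 52 of 191 (27.2%), miR6232 39 of 181 (21.5%) and miR5564 42 of 174 (24.1%). The highest shares were those of miR5566, with 27 of 63 (42.9%, 31.4 to 55.1%), and miR5570, with 21 of 55 (38.2%, 26.5 to 51.4%). The lowest were miR5567, with 6 of 81 (7.41%, 3.44 to 15.2%), miR6225, miR5386 with 8 of 58 (13.8%) and miR6235 with 10 of 70 (14.3%). Intervals of miR5567 and miR6225 lay wholly below that of miR5568, those of miR5566 and miR5570 wholly above it, and those of the other numbers with at least 50 sites overlapped with it.

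The other numbers of at least 80 sites lay close together. The share was 30.4% of 102 sites for miR6231, 29.1% of 86 for miR6222, 28.3% of 120 for miR5382, 25.8% of 120 for miR6218, 25.6% of 82 for miR6221 and 24.1% of 83 for miR5381. It was 21.8% of 119 for miR6223, 21.4% of 140 for miR6230, 21.0% of 105 for miR5389, 20.8% of 130 for miR6220 and 20.2% of 104 for miR6224. Their intervals all overlapped. The remaining 13 numbers had at most 30 sites each. Among them miR5388 had a read at 5 of 30 sites, miR6227 at 1 of 26, miR6228 at 2 of 25, miR5385 at 5 of 18 and miR6233 at 3 of 17. The 8 numbers with fewer than 10 sites were miR6217 (1 of 9), miR6234 (1 of 8), miR5569 (2 of 7), miR6226 (0 of 7), miR6219 (1 of 6), miR5383 (2 of 5), miR5387 (1 of 3) and miR6229 (1 of 2).

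**Figure D3:**
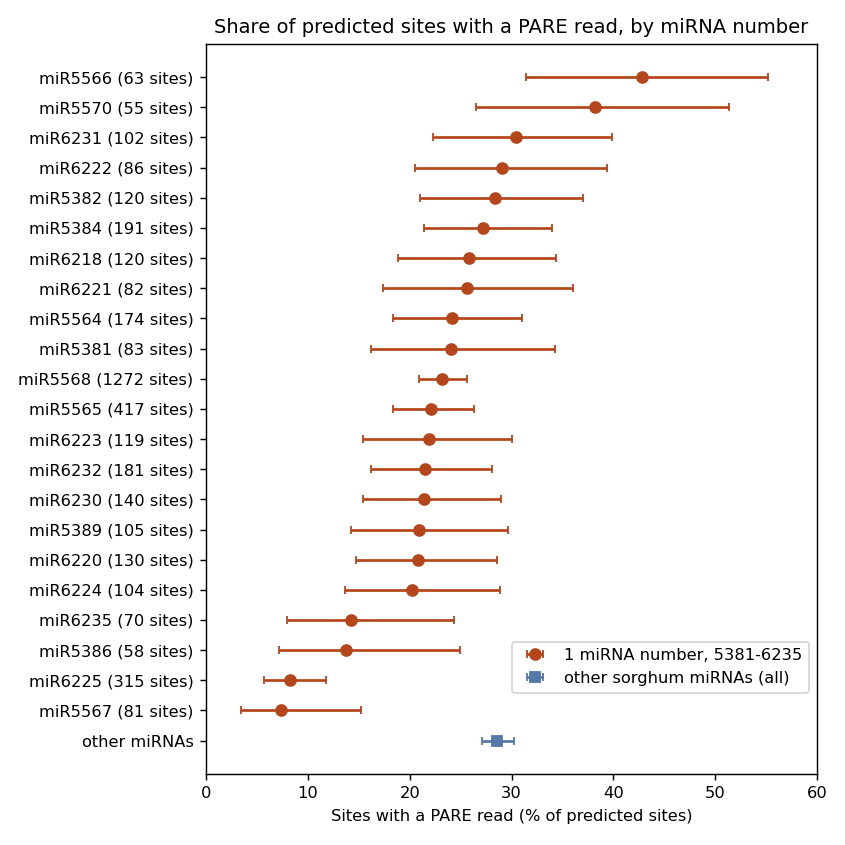
Each circle is 1 of the 22 sorghum lineage miRNA numbers with at least 50 sites, with the share of its sites that had a PARE read in % on the x axis and a 95% Wilson interval; the square in the bottom row is all other sorghum miRNAs together at 28.6%. miR5566 and miR5570 lie highest and miR6225 and miR5567 lowest, and most circles lie between 20.2% and 30.4%.

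The arms of a precursor could differ widely. miR6221-3p had a read at 15 of 34 sites (44.1%, 28.9 to 60.5%), against 6 of 48 (12.5%, 5.86 to 24.7%) for miR6221-5p. miR6218-3p had 27 of 89 (30.3%) and miR6218-5p 4 of 31 (12.9%). Values for the arms of miR6225 were 16 of 180 (8.89%) for the 3p and 10 of 135 (7.41%) for the 5p arm. Within miR5568 the shares ran from 15 of 91 sites (16.5%) for miR5568d-3p to 27 of 77 (35.1%) for miR5568a. miR6232a-5p had no read at 13 sites (upper limit 22.8%) and miR6232b-5p had one at 23 of 101 (22.8%), so these shares are not shown to differ. The values for single arms are descriptions and were not tested.

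The share of sites with a read was lower for sequences of 24 bases than for those of 21 bases. Among the sorghum lineage miRNAs, 31 sequences of 24 bases had a read at 100 of 817 sites, or 12.2% (10.2 to 14.7%), while 36 sequences of 21 bases had one at 642 of 2627, or 24.4% (22.8 to 26.1%). The 2 sequences of 18 bases, miR5382 and miR5384, had 86 of 311 (27.7%), the 2 of 19 bases had 61 of 254 (24.0%), the 2 of 20 bases 31 of 163 (19.0%) and the 4 of 22 bases 17 of 89 (19.1%). The other sorghum miRNAs had 682 of 2292 (29.8%) at 21 bases and 1 of 31 (3.23%, 0.572 to 16.2%) from 2 sequences of 24 bases. As background, most plant miRNAs are 21 bases long, and small RNAs of 24 bases are known mainly for directing DNA methylation rather than transcript cleavage. The sequences of 24 bases were uneven. A read stood at 26 of 315 sites of miR6225, 6 of 81 of miR5567, 10 of 70 of miR6235 and 27 of 130 of miR6220. Length was examined after the values had been seen, was not tested and was not separated from the miRNA number. With miRNAs of 21 bases alone, sorghum lineage sites still had reads less often than the others (odds ratio 0.76, Fisher's exact test, adjusted p = 5.60e-05).

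**Figure D4:**
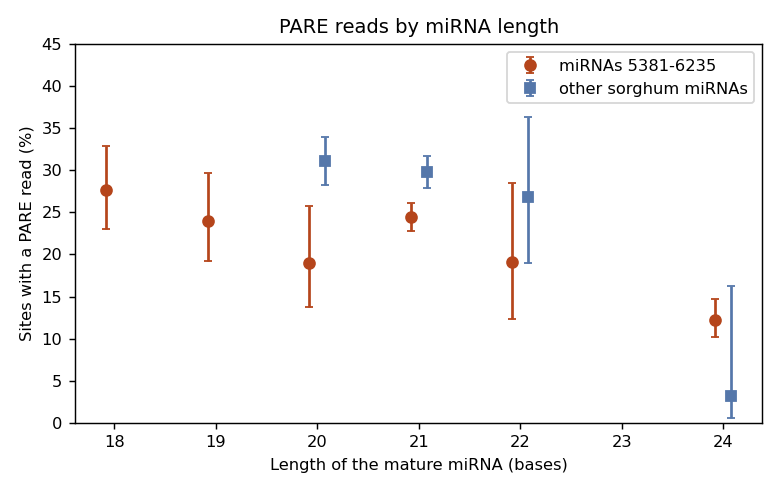
The y axis gives what part of the sites had a PARE read, in %, by the length of the mature miRNA in bases, for the sorghum lineage miRNAs (circles) and the other sorghum miRNAs (squares), with 95% Wilson intervals; the single site of a 25-base sequence is not drawn. At 24 bases the shares were 12.2% and 3.23%, and at 21 bases 24.4% and 29.8%.

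The libraries named for the sorghum lineage sites covered all 10 samples. Leaf was named for 184 of the 926 sites with a read, root for 209, panicle for 311, cold for 112 and the control for cold for 110. For the other sorghum sites these counts were 201, 246, 320, 89 and 70 in the same order. Replicate 2 of the panicle was named most often in both, for 194 sorghum lineage sites (21.0%) and 211 other sites (22.8%). In the study's library summary it also has the most distinct genome-matched sequences of the 10 sorghum libraries. Each cold and control for cold library has fewer of these than any leaf, root or panicle library. By total genome-matched reads cold replicate 1 is the highest. The part of library size in the counts was not tested. What the library name records when several libraries hold a read at the site is not given in the sources used here, so these counts do not measure abundance in a tissue.

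Leaf, root or panicle libraries together were named for 704 of 926 sorghum lineage sites, or 76.0% (73.2 to 78.7%), against 767 of 926 other sites, or 82.8% (80.3 to 85.1%). The odds ratio was 0.66 (Fisher's exact test, adjusted p = 0.000397). This p-value rests on counts of sites and does not measure the spread between the 2 libraries of a group. Among sites named for the cold experiment, cold was named for 112 of 222 sorghum lineage sites, or 50.5% (43.9 to 57.0%), and for 89 of 159 other sites, or 56.0% (48.2 to 63.5%). That odds ratio was 0.80 and did not pass Fisher's exact test (adjusted p = 0.300), and it was 1.10 without cold replicate 1.

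**Figure D5:**
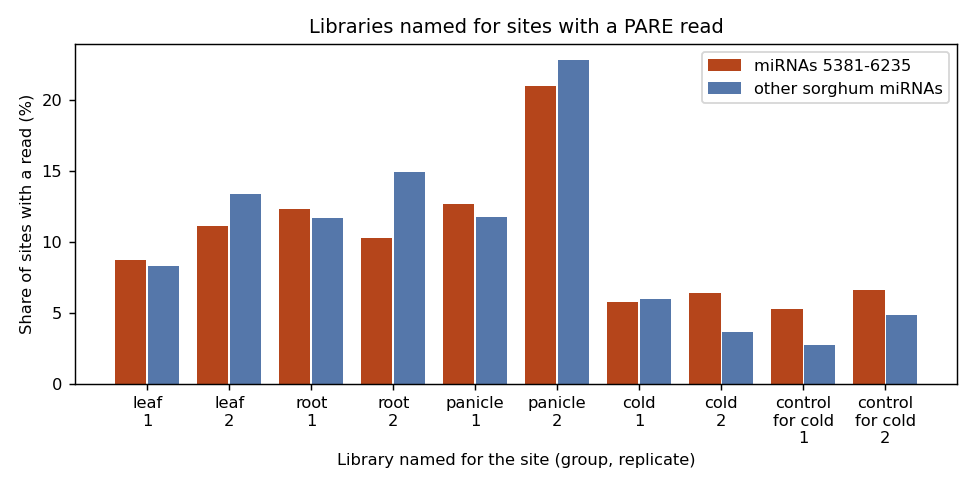
Bars give the share of sites with a read in % that named each of the 10 sorghum PARE libraries, for the sorghum lineage miRNAs (left bar, of 926 sites) and the other sorghum miRNAs (right bar, of 926 sites), by group and replicate on the x axis. Panicle replicate 2 has the tallest bars at 21.0% and 22.8%, and the left bar is the taller in leaf, root and panicle replicate 1, in cold replicate 2 and in both control for cold libraries.

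Over all 926 sorghum lineage sites with a read, cold was named for 12.1%, the control for cold for 11.9%, panicle for 33.6% and root for 22.6%. A few numbers are given beside these shares as examples, on small counts that were not tested. miR6230 had 0 of its 30 read-bearing sites named for cold or its control and 17 named for panicle. miR5384 had 13 named for cold, 5 for the control for cold and 19 for root among 52. miR5568 had 34 named for cold and 44 for the control for cold among 295, near the overall shares. miR6232 had 8 and 10 among 39.

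Some transcripts held several sites, which was not compared with the other sorghum sites. A single sorghum lineage site was predicted on 1898 transcripts and more than 1 on 760, up to 17 sites on Sobic.001G437100.2, of which 1 had a read. Within 5 bases of another sorghum lineage site lay 648 sites, or 15.4%, and 121 positions were predicted for 2 sequences. The share with a read was 20.8% (17.9 to 24.1%) for sites within 5 bases of another and 22.5% (21.1 to 23.9%) for those more than 20 bases away or alone, with overlapping intervals.

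Sobic.006G186800.1, named after its values were seen, had 14 sites and a read at 11, all but 1 of them at 1 TP10M. Its sites for miR5568c-3p, miR5568f-3p and miR5568g-3p stood at positions 1730, 1731 and 1736 and again at 1789, 1790 and 1795, each pair 59 bases apart. At position 1790 the abundance was 2 TP10M in panicle replicate 1, with an expectation of 1 and 0.556% of the transcript's abundance. At position 1731, also with an expectation of 1, it was 1 TP10M in cold replicate 1. Reads at this transcript were named for leaf, panicle, cold and control for cold libraries, and no position reached Level 2. On Sobic.007G053400.1, likewise chosen afterwards, 5 of 11 sites had a read, and miR5568f-3p at position 1263 had 2 TP10M. By contrast Sobic.003G083400.1 and Sobic.004G216500.1 had 12 sites each and no read at any.

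Accessibility and position were also compared. The unpaired energy, which psRNATarget gives as the energy needed to open the target site, had a median of 17.3 at 835 sorghum lineage sites with a read and 16.5 at 2936 without, against 18.8 at 890 and 18.3 at 2269 other sites. The sites lay at a median position of base 1615 of the transcript, against 1367 for the other sites. These medians are descriptions, with no test.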

How the data were processed

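PARE libraries were made from sorghum BTx623 leaf, root, panicle, cold-treated and control tissue (2 replicates each). The authors mapped reads without mismatches (Bowtie 0.12.7), took sorghum homologs of Brachypodium transcripts with PARE evidence, and predicted sites for miRBase 21 miRNAs with psRNATarget and TargetFinder on the Sorghum bicolor annotation. The deposited table gives, for each prediction, prediction scores, an abundance score in TP10M rounded to whole numbers, a rank, a peak percent written as a fraction, a level and a library. Its peak filter passes from 20%, which is higher than the limit in the study's text. It holds 1 value per site. How libraries were combined is not given in the sources used here. Read depth per library was not used.

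Rows were merged to sites (lowest expectation and TargetFinder score kept). miRNAs were told apart by mature sequence. Shares were compared by two-sided Fisher's exact tests with Benjamini-Hochberg adjustment over 10 tests (scipy 1.17.1), with 95% Wilson intervals, and by logistic fits (statsmodels 0.14.6). The test code was tested on simulated data. Sites named in full were those at Level 2 to 4, the 20 most abundant, and, for the 5 numbers with most read-bearing sites, the site of lowest expectation (of ties, the most abundant). The mature sequences shown come from the deposited table. Alternatives changed the evidence minimum (2 TP10M), the peak criterion (10%), the counting unit, the comparison miRNAs (numbered under 1000), the expectation threshold (2.5 or 4) and the sites included. The miRNAs and tests were chosen with earlier results of these data known. The Brachypodium and switchgrass tables served only to count sites and compare miRNA names and sequences. RNA-seq tables were not used.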

Additional observations from a re-analysis of the deposited data

Results flagged for a closer look

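The relation between predicted pairing and PARE reads differed between the sorghum lineage miRNAs and the other sorghum miRNAs in a test of the difference itself. The transcripts were homologs of Brachypodium transcripts with PARE evidence for a miRNA. The part of that choice in this difference cannot be told apart from the kind of miRNA. The ratio of odds ratios was 0.257 for an expectation of at most 3 against above 3, and 0.247 for prediction by both programs against 1. Sites of the sorghum lineage miRNAs had a read less often where pairing was closer (15.1% against 23.2%), and sites of the other miRNAs more often (46.1% against 27.2%). The ratios stood on the same side of 1 in each alternative run. For expectation they ran from 0.0684 (evidence of at least 2 TP10M) to 0.530 (expectation threshold of 4). For the programs they ran from 0.0587 (evidence of at least 2 TP10M) to 0.247. With evidence of at least 2 TP10M, only 9 sorghum lineage sites scored 3 or lower, and 9 predicted by both programs, counted as read-bearing.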

How the results depend on the processing

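Of 103 alternative values, 96 were counted as unchanged. For a test this meant the same direction and side of the threshold, and for a count of sites a value near the reported one. The 96 include the runs without sites shared with other miRNAs, which could not differ because there were 0 such sites. The odds ratios for Level 2 to 4 and for Level 3 or 4 fell short of the threshold with an expectation above 3 (0.65 and 0.43). Evidence of at least 2 TP10M left 118 sorghum lineage sites with a read in place of 926, and the odds ratios for a read by expectation and by number of programs were then 0.61 and 0.50, short of the threshold with fewer sites. With miRNAs of 21 bases the odds ratio by programs was 0.74, also short of it; the cause was not tested. A peak criterion of 10% gave 47 sites at Level 2 to 4 in place of 42, and 2 at Level 4 in place of 0. Leaving out the sites named for each library in turn, an alternative chosen after seeing the data, gave odds ratios from 0.56 to 0.71 for leaf, root or panicle against the cold experiment. For cold against its control the range was 0.61 to 1.10, with the reversal without cold replicate 1; this comparison passed the threshold in none of these alternatives. Leaving out sites shared with other miRNAs changed nothing, since there were 0. No paired analysis was possible because the table holds 1 value per site and none per library. Values of 1 TP10M limit what single sites can show.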
